A study of Mus musculus with 12 samples.

Results

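Cluster 1 is the group of nuclei that the authors named callosal projection neurons, the largest of 25 clusters in their snRNAseq of mouse cortex at embryonic day 14. Its members were taken as the authors assigned them, and counted 4366 of 50550 nuclei (8.64%), or 27.2% of the 16036 nuclei in the 8 projection neuron clusters. The C57BL/6J dams received 6 once-daily intraperitoneal injections from E8.5, of saline or of EtOH at 2.5 g/kg (25% v/v in saline). Saline embryos numbered 5, from dam S1 in batch 1 (S1-1, S1-2) and dam S2 in batch 2 (S2-1, S2-2, S2-4), and gave 2432 Cluster 1 nuclei. EtOH embryos numbered 6, from dam E1 in batch 1 (E1-1, E1-2) and dam E2 in batch 2 (E2-1 to E2-4), and gave 1934. Males and females were combined. With 2 dams per treatment, an effect of the dam and an effect of EtOH cannot be told apart within a batch, and p-values take littermates as independent.

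Callosal projection neurons are glutamatergic neurons that send an axon through the corpus callosum to the other hemisphere. Subcerebral projection neurons, which send axons out of the cortex, depend instead on the transcription factors Fezf2 and Bcl11b (Ctip2). Newborn cortical neurons carry Dcx, a microtubule protein of migrating neurons, and the NeuroD transcription factors. Axons are steered across the midline by secreted cues such as netrins and Slits and by their Dcc, Unc5 and Robo receptors.

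Both markers given for the cluster were present in every embryo. Levels are in CPM (a gene's UMIs scaled to the total UMIs of an embryo's Cluster 1 nuclei, at the usual CPM scale), with errors as the SD between embryos. Neurod2, a transcription factor of glutamatergic neurons, stood at 252 ± 75.3 CPM (n = 11), second of the 25 clusters after Cluster 9, the early projection neurons. Dcx stood at 544 ± 36.8 CPM (n = 11), eighth of the 25. Neurod6, a relative of Neurod2, was also second, at 175 ± 27.5 CPM (n = 11). The strand of counting is not stated, and whether reads of genes that overlap on opposite strands were kept apart was not tested.

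Of the callosal and upper layer genes described here, some were higher in Cluster 1 than in most clusters and others were not. Cux2, a homeodomain factor of upper layer neurons, stood at 301 ± 65.9 CPM (n = 11) in Cluster 1 against 26.1 CPM in Cluster 4, the rostral subcortical neurons, while Cluster 9 held 688 CPM and Cluster 22, the other cluster named callosal, held 79.6 CPM. Cux1, its relative, was 20th of the 25 clusters at 354 ± 98.7 CPM (n = 11). Pou3f2 and Pou3f3, POU factors of upper layer neurons, were 12th and 15th, at 23.05 and 41.9 CPM. Cux1, Pou3f2 and Pou3f3 were nonetheless higher in Cluster 1 than in Cluster 4, where they stood at 86.7, 10.7 and 19.3 CPM. All of them were higher still in Cluster 9, at 480, 52.9 and 90.8 CPM. Genes of deep layer and subcortical neurons were also present. Bcl11b stood at 1139 CPM, beside 1200 CPM in Cluster 4, and Sox5, a repressor that sets the order of deep layer neurons, was second of the clusters at 5653 ± 464 CPM (n = 11) against 9103 CPM in Cluster 4. Tle4, a corepressor of corticothalamic neurons, was lower in Cluster 1 than in Cluster 4, 157 against 683 CPM, and so was Foxp2, a forkhead factor of the same neurons, 275 against 713 CPM. Fezf2, which directs subcerebral fate, stood at 39.7 CPM against 77.7 CPM. Slc17a6, a vesicular glutamate transporter, stood at 96.5 CPM against 541 CPM in Cluster 9. These levels are a description with no test, since the same genes were used to form the clusters.

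**Figure D1:**
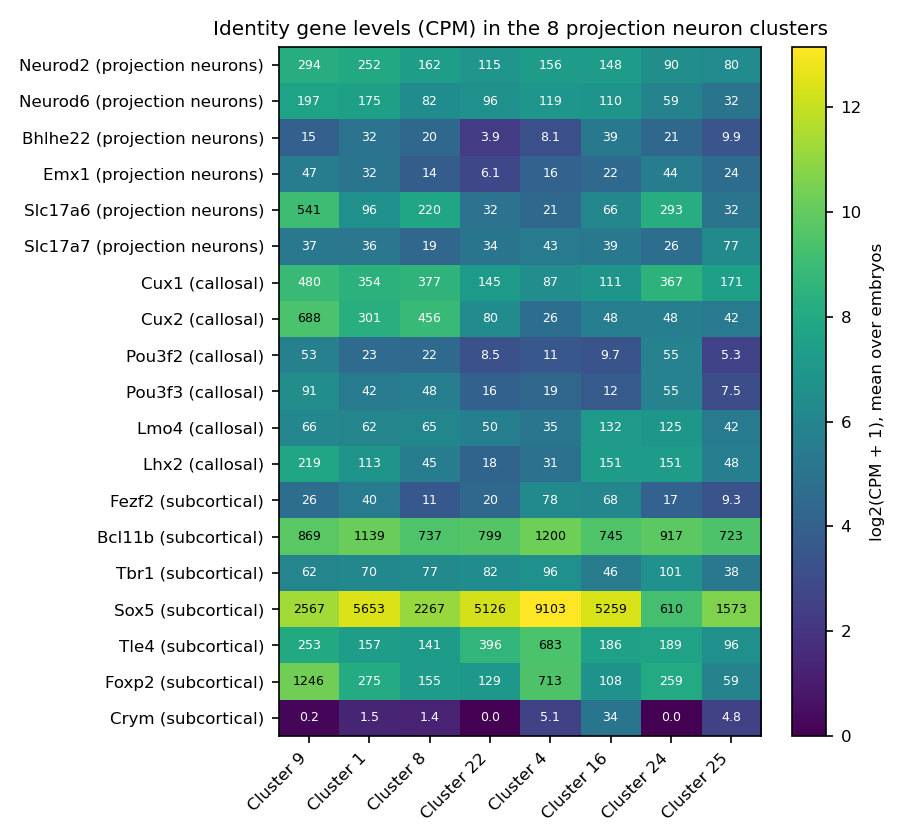
Mean level over embryos of projection neuron, callosal and subcortical genes (rows) in the 8 projection neuron clusters (columns), with CPM printed in each cell and log2(CPM + 1) as its colour. In Clusters 1 and 4, Cux2 lay at 301 and 26.1 CPM, while Bcl11b lay at 1139 and 1200 CPM.

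Single nuclei were also compared after each was thinned to 2000 UMIs, so that depth was equal. A Bcl11b UMI was found in 82.0% ± 6.72 of the saline nuclei (n = 5) and 78.8% ± 4.22 of the EtOH nuclei (n = 6). Cux2 was found in 31.1% ± 3.55 and 34.3% ± 6.69, Neurod6 in 26.7% ± 2.80 and 31.6% ± 3.57, and Fezf2 in 7.72% ± 1.99 and 6.92% ± 0.770. As a background, the share expected at 2000 UMIs, computed from each nucleus's counts, was 4.01% for Neurod6 and 1.01% for Fezf2 in Cluster 5, which are interneurons and should lack both. The median depth was 6607.5 UMIs in Cluster 1 and 6652 UMIs in Cluster 5. The corresponding share for Bcl11b in Cluster 5 was 65.7%, and for Cux2 64.5%, as these are also interneuron genes, so for them Cluster 5 is no background.

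Some genes were higher in Cluster 1 than in every other projection neuron cluster. Of 3391 genes with at least 50 CPM in Cluster 1, 110 were highest there among the 25 clusters. Abcc8, the sulfonylurea receptor of potassium channels, stood at 198 ± 48.4 CPM (n = 11), 2.22 times its level in the next projection neuron cluster. Cntn2, an axonal adhesion protein of pioneering fibers, stood at 491 ± 70.7 CPM (n = 11) against 224 CPM in Cluster 9, a ratio of 2.19. The other 6 genes with the highest such ratios were Hs6st2, a heparan sulfate sulfotransferase (1.93), Dscam, an adhesion molecule and guidance receptor (1.7), Alg13 (1.66), Bmpr1b, a BMP receptor (1.65), Tle3 (1.64) and Pde4b, a cAMP phosphodiesterase (1.62).

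Against the mean of the 2 subcortical clusters, 4 and 16, guidance receptors and matrix genes led. Robo2, a receptor for Slits, stood at 4943 ± 1115 CPM (n = 11) against 503 CPM, a ratio of 9.82. It was followed by Cemip, which acts on hyaluronan (8.61), Cux2 (8.16) and Ndst3, a heparan sulfate enzyme (6.06). Lower ratios were found for Adamtsl3 (5.77), the matrix protein gene Fn1 (5.10) and the netrin receptor gene Unc5d (4.90). Except for Fn1, each of these genes was higher in the early projection neurons of Cluster 9 than in Cluster 1. Cluster 9 held 8880 CPM of Robo2, and its 9153 CPM of Unc5d compared with 1662 CPM in Cluster 1. Fn1 was lower in Cluster 9 (14.0 CPM) but highest in radial glia Cluster 2 (112 CPM). These ratios therefore set Cluster 1 apart from the subcortical clusters only.

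The cluster's share of nuclei did not differ between treatments beyond the spread between embryos. The authors had dropped 1 saline sample whose nuclei were spread over the clusters unlike those of the other samples. The saline embryos compared here were thus kept in part by such shares, which limits this test. The share was 8.80%, 8.55%, 4.85%, 8.86% and 8.93% of all nuclei in S1-1, S1-2, S2-1, S2-2 and S2-4, a mean of 8.0% ± 1.76 (SD, n = 5). It was 13.9%, 10.3%, 8.91%, 8.10%, 8.91% and 8.83% in E1-1, E1-2 and E2-1 to E2-4, a mean of 9.82% ± 2.13 (SD, n = 6). S2-1 was low and E1-1 high among the embryos, and the other 9 lay close together. The 2 groups overlapped, and the two-sided exact permutation test over all 462 splits of the embryos gave p = 0.197 (0.152 over the 210 splits within batches). Of projection neuron nuclei, Cluster 1 made up 27.6% ± 1.53 in saline (n = 5) and 27.0% ± 5.08 in EtOH embryos (n = 6, exact permutation p = 0.855). Here E1-1 was again high, with 36.7% where the other 10 embryos held 22.9% to 29.8%.

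Nuclei of EtOH embryos were shallower. The median UMIs per Cluster 1 nucleus were 8665, 8450, 7943.5, 7766 and 6137 in S1-1, S1-2, S2-1, S2-2 and S2-4. They were 3987.5 in E1-1, 5681 in E1-2, and 6368, 6463, 6312 and 5957.5 in E2-1 to E2-4. S2-4 lay among the EtOH embryos and E1-1 below all others. The means were 7792 ± 995 (n = 5) and 5795 ± 933 (n = 6), with an exact permutation p = 0.00866 (0.0190 within batches). Total UMIs over the cluster lay between 2533313 and 6664736 per saline and between 1381932 and 2710504 per EtOH embryo. Libraries of 1 dam differed by more than sampling noise (chi-square per gene 1.73 to 10.5, where repeated draws would give about 1), and S2-4 stood farthest from its littermates, at 10.5 from S2-1 and 10.1 from S2-2. Within Cluster 1, 0 cell barcodes occurred in 2 libraries, and 45 occurred in another library outside the cluster.

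**Figure D2:**
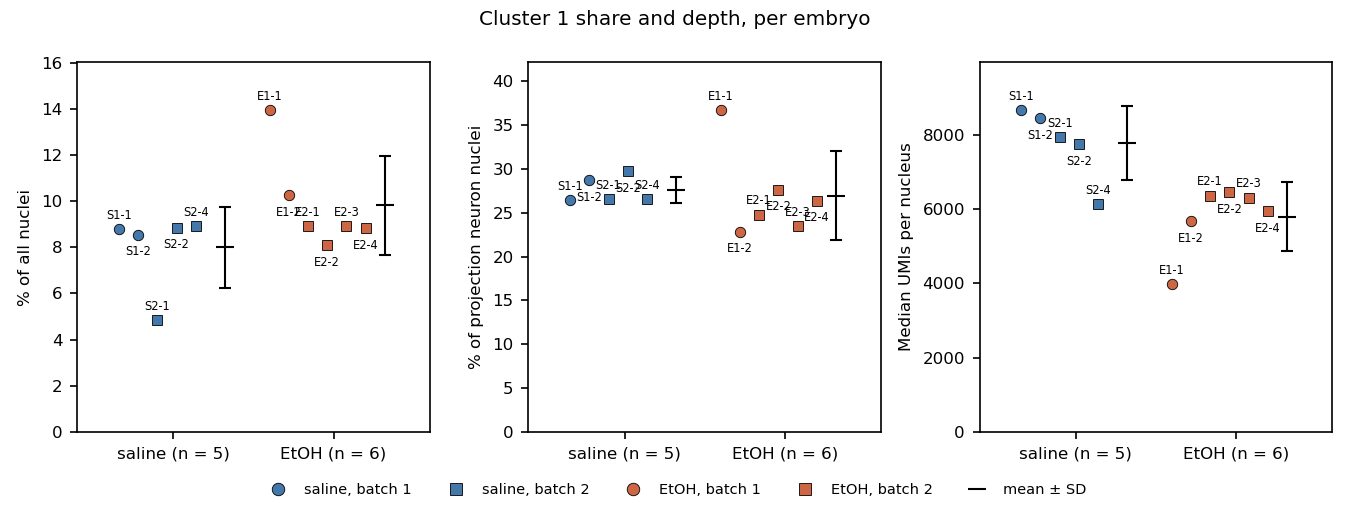
Share of all nuclei (%), share of projection neuron nuclei (%) and median UMIs per nucleus of Cluster 1, with 1 point per embryo, batches by marker shape, and bars at the mean ± SD of each treatment. Shares overlapped between treatments, and median UMIs averaged 7792 in saline and 5795 in EtOH embryos.

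RNA of other cell types was also found in Cluster 1, and its level in the 2 treatments differed by cell type. The 9 interneuron markers (Gad1, Gad2, Dlx1, Dlx2, Dlx5, Dlx6os1, Erbb4, Lhx6 and Nxph1) summed to 868, 609, 904, 482 and 280 CPM in S1-1, S1-2, S2-1, S2-2 and S2-4, and to 200, 302, 320, 179, 161 and 186 CPM in the EtOH embryos. S2-4 fell within the EtOH range and the other 4 saline embryos above it. The median of the embryos was lower in EtOH for 9 of the 9 markers. A UMI of any of them was found in 73.3% to 99.9% of saline and 34.2% to 70.5% of EtOH nuclei, without thinning, so that the lower depth of EtOH nuclei enters these shares. Striatal markers summed to 64.9 to 185 CPM in saline and 28.2 to 74.5 CPM in EtOH embryos (4 of 5 medians lower). The ranges were 170 to 438 and 94.0 to 212 CPM for Cajal-Retzius markers (3 of 4 lower), and 45.5 to 130 and 25.3 to 60.5 CPM for mitotic markers (5 of 5 lower). For radial glia they were 80.4 to 126 and 68.7 to 103 CPM (7 of 8 lower), and for intermediate progenitors 44.5 to 66.6 and 40.2 to 62.3 CPM (3 of 4 lower). Thalamic markers lay at 41.5 to 132 and 43.4 to 81.2 CPM (2 of 3 lower), and erythroid markers at 20.1 to 184 and 42.7 to 82.3 CPM (2 of 6 lower). Microglial markers lay at 6.22 to 23 and 16.9 to 25.1 CPM (0 of 4 lower), with C1qa near 0. By the exact permutation test with adjustment over the marker classes, no class passed, and interneurons and striatal cells had the smallest adjusted p (0.0552 each). Defining markers of oligodendrocyte precursors, Olig1 and Sox10, were near 0. The Cajal-Retzius sum was mostly Reln, at 229 CPM in Cluster 1, while Trp73, Ebf3 and Lhx5 stood at 1.24, 3.33 and 0.372 CPM. Reln was not confined to Cajal-Retzius cells, with 228 CPM in Cluster 9 and 439 CPM in Cluster 7, which are interneurons. That sum is therefore no specific measure of RNA from Cajal-Retzius cells. Gad2, which makes GABA, stood at 34.3 CPM in Cluster 1, 22nd of the clusters, against 1248 CPM in Cluster 23. Gene fits with the interneuron sum as a covariate, and without the 3 saline embryos highest in it, are given below. Neither measures the part of these sums in the gene differences between treatments. For the other cell types that part was not tested.

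**Figure D3:**
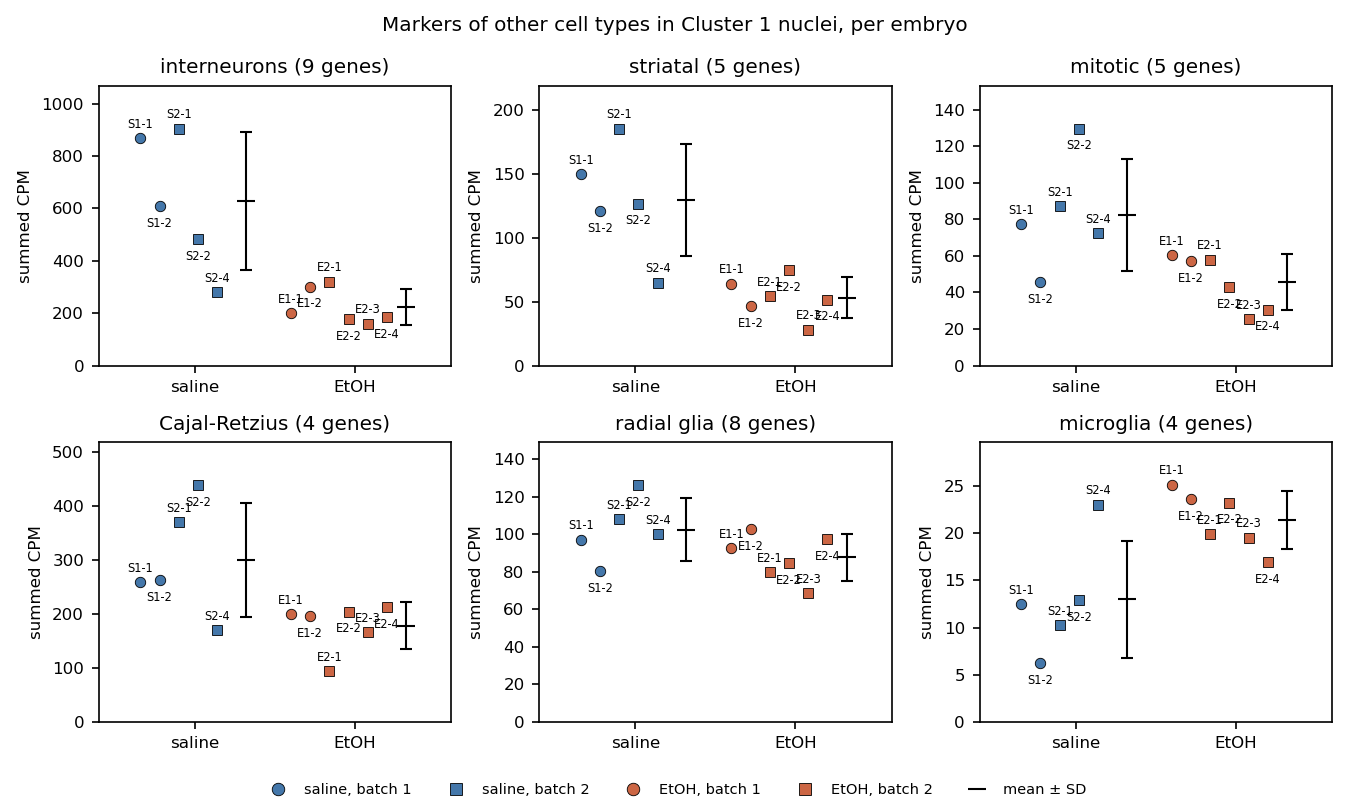
Summed level in CPM of the markers of 6 other cell types in Cluster 1, with 1 point per embryo, batches by marker shape, and bars at the mean ± SD of each treatment. Interneuron markers lay at 280 to 904 CPM in saline and 161 to 320 CPM in EtOH embryos, and S2-4 was the lowest saline embryo for interneuron, striatal and Cajal-Retzius markers. The Cajal-Retzius sum was mostly Reln, which other clusters also hold.

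EtOH and saline embryos were compared gene by gene on the counts summed per embryo, with edgeR's quasi-likelihood test and Benjamini-Hochberg adjustment. To be called, a gene needed both an adjusted p below 0.05 and a fold change under 0.8 or over the inverse of 0.8. Of 10769 genes tested, 182 were lower in EtOH (1.69%) and 169 were higher (1.57%). All values of 1 treatment lay above those of the other for 137 genes higher in saline (1.27%) and 123 genes higher in EtOH (1.14%). The median log2 fold change of all genes tested was 0.0027.

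The 2 directions differed in where the genes had their highest level. For the genes called lower, the level in Cluster 1 had a median of 11.7% of that in the cluster with the most, against 60.1% over all genes tested and 69.6% for the genes called higher. Cluster 1 reached at least 50% of the top level for 35 of the 182 lower genes (19.2%), 138 of the 169 higher genes (81.7%) and 64.9% of all tested. Radial glia clusters held the highest level of 94 lower genes (51.6%), against 34.9% of the higher genes and 45.9% of all tested. Projection neuron clusters held that of 13.2% of the lower and 27.8% of the higher genes, with 20.9% of all tested. Interneuron clusters held the highest level of 16.5% of the lower and 19.5% of the higher genes, with 15.2% of all tested. Cluster 1 itself had the highest level for 1 lower gene (0.549%) and 5 higher genes (2.96%), with 1.76% of all tested. These are counts with no test.

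**Figure D4:**
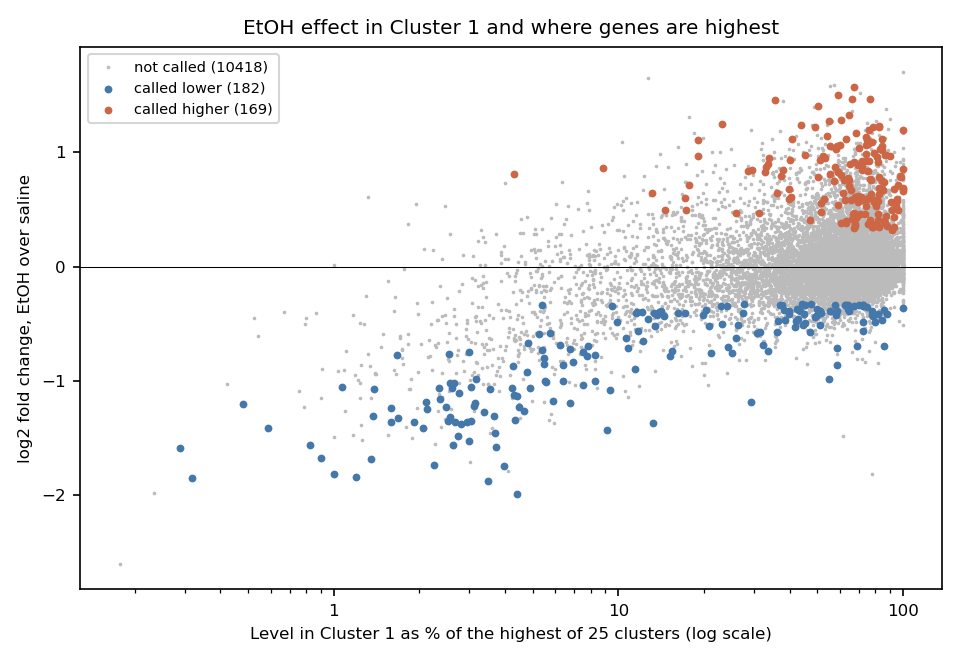
Log2 fold change (EtOH over saline) of each gene tested, against its level in Cluster 1 as a percent of its level in the highest cluster (log axis), with called genes coloured. The 182 lower genes had a median of 11.7% on the horizontal axis and the 169 higher genes one of 69.6%.

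Leaving out a single embryo moved these counts to between 11 and 623 lower and between 1 and 1034 higher genes, with the fewest without S1-1 and the most without S2-4. In batch 1 alone 478 were lower and 625 higher, and in batch 2 alone 0 in either direction (1272 at an unadjusted p under 0.05). Without S1-1, S1-2 and S2-1, the 3 saline embryos with the most interneuron marker RNA, 1 gene was lower and 0 were higher (827 at an unadjusted p under 0.05). With that RNA as a covariate there were 0 in either direction (273). Both choices were made after seeing the data. The first leaves S2-2 and S2-4, both of dam S2 and batch 2, as the only saline embryos. In the second the covariate largely follows treatment, as all saline embryos but S2-4 lie above the EtOH range. Both limits can cost calls by themselves, so these fits do not measure the part of that RNA.

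Among the genes lower in EtOH, Trps1 had the smallest adjusted p. It encodes a GATA-type zinc finger repressor (chr15:50654752-50890463, minus strand, GRCm38) and stood at 149, 152, 180, 202 and 145 CPM in S1-1, S1-2, S2-1, S2-2 and S2-4, and at 96.5, 92.4, 95.2, 98.1, 115 and 99.2 CPM in the EtOH embryos. The groups did not overlap, and the lowest saline embryo lay above the highest EtOH embryo. The means were 166 ± 24.4 (n = 5) and 99.4 ± 8.02 CPM (n = 6), a log2 fold change of -0.78 (SE 0.086, adjusted p = 0.000246 by edgeR's quasi-likelihood test). It was called without each embryo in turn, but its fold in batch 2 alone, -0.80, had an adjusted p of 0.105 and that with the interneuron covariate, -0.73, one of 0.819.

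Camk2d, a calcium- and calmodulin-dependent kinase (chr3:126596302-126846326, plus strand), stood at 36.3, 25.9, 40.7, 38.8 and 22.1 CPM in the saline embryos and at 14.8, 12.4, 12, 12.2, 13.7 and 16.5 CPM in the EtOH embryos. These did not overlap, with means of 32.7 ± 8.25 and 13.6 ± 1.77 CPM (log2 fold change -1.31, SE 0.18, edgeR adjusted p = 0.00273). Megf10, an engulfment receptor, fell from 17.1 ± 3.28 to 7.03 ± 1.91 CPM (log2 fold change -1.35, edgeR adjusted p = 0.00345). Ect2, a GTPase exchange factor needed to divide the cell in cytokinesis, fell from 11.6 ± 3.58 to 3.27 ± 0.958 CPM (-1.87, edgeR adjusted p = 0.00345). Arhgap5, a GTPase-activating protein, fell by 0.50 on the log2 scale, and Cpe, a carboxypeptidase that trims prohormones, by 0.51. Rbms3, an RNA-binding protein gene, fell by 1.02, and Lockd, a noncoding RNA beside Cdkn1b, by 1.36. Plce1, a phospholipase C, fell by 1.36 and Tanc1, a postsynaptic scaffold, by 1.05. In all 10 the saline and EtOH embryos did not overlap, where 1.27% of all genes tested were without overlap and higher in saline. The 10 were chosen by their p in the same embryos, so this is no separate support. For 9 of the 10 Cluster 1 held less than 25% of the highest cluster's level (1.59% to 23.2%), and for Cpe it held 44.7%. The highest cluster was of radial glia for 7, of intermediate progenitors for Cpe and Lockd, and of interneurons for Rbms3.

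Among the genes higher in EtOH, Gm42303 had the smallest adjusted p. It is an RNA on the strand opposite Ptprd (chr4:76451231-76490113, plus strand), and stood at 18.8, 17.7, 26.4, 25 and 33.6 CPM in the saline embryos and at 42.8, 45.2, 55.1, 46.1, 44.9 and 37.8 CPM in the EtOH embryos. The groups did not overlap, at 24.3 ± 6.46 and 45.3 ± 5.63 CPM (log2 fold change 0.87, SE 0.14, edgeR adjusted p = 0.00978). Whether its count holds reads of Ptprd, an adhesion phosphatase at 9480 CPM, was not tested. Podxl2, a sialomucin also called endoglycan, stood at 139, 149, 147, 147 and 204 CPM in the saline embryos and between 211 and 221 CPM in the 6 EtOH embryos. S2-4 was close to the EtOH embryos and the other 4 saline embryos far below. The log2 fold change was 0.40 (SE 0.074, edgeR adjusted p = 0.0163).

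Of 7 other higher genes, Ormdl2, a regulator of sphingolipid synthesis, stood at 12.7 ± 4.98 and 26.1 ± 2.66 CPM, and Prodh, the proline dehydrogenase gene, at 8.81 ± 3.61 and 20.4 ± 3.58 CPM. Cirbp, a cold-inducible RNA-binding protein gene, stood at 27.0 ± 6.23 and 42.7 ± 2.70 CPM. Their log2 fold changes were 0.98, 1.12 and 0.62. Rab24, a GTPase linked to autophagy, rose by 0.92. Zfhx2os, the antisense RNA of Zfhx2, rose by 0.97, and 2 genes with no given role, C230088H06Rik and 5430419D17Rik, by 0.93 and 1.57. In each of these 7 and in Podxl2 and Gm42303, S2-4 had the highest saline value. The edgeR adjusted p of the 7 lay between 0.0163 and 0.0205, and Rab24 overlapped between groups.

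**Figure D5:**
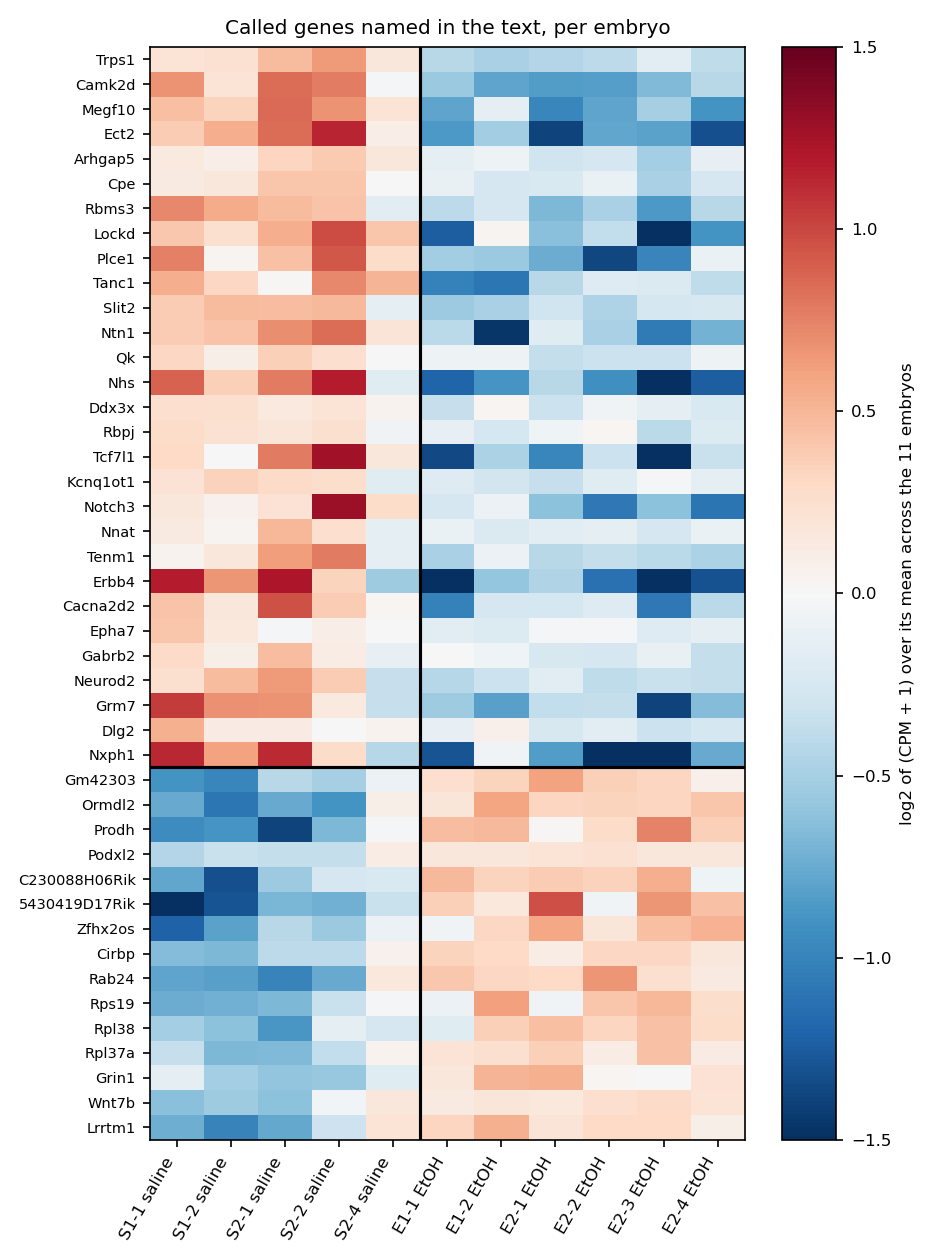
The called genes (rows) in each embryo (columns), coloured by log2 of (CPM + 1) relative to the gene's mean over the 11 embryos, with colours saturating at -1.5 and 1.5. Genes lower in EtOH stand above the line and genes higher in EtOH below it, and in most of the higher genes S2-4 has the highest saline value.

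Of the 44 called genes named here, 9 were called without each embryo in turn, Trps1, Camk2d, Megf10, Ect2, Arhgap5, Cpe, Rbms3, Lockd and Gm42303. Of the 44, 36 were called with batch as a term, 33 by voom with a random dam block, 18 with counts summed per dam, 0 in batch 2 alone, 1 without the 3 saline embryos with the most interneuron marker RNA, and 0 with that RNA as a covariate. After thinning to 2000 UMIs 20 were called of the 37 that could be tested. The size of the fold moved less uniformly than the calls. The log2 fold change was no more than 1.5 times smaller for all 44 with batch as a term and with counts summed per dam. The same held with voom and without each embryo in turn. In batch 1 alone and in batch 2 alone it held for 41 of 44, and after thinning for 36 of 37. Without the 3 saline embryos with the most interneuron marker RNA, the saline group holds dam S2 in batch 2 alone, so dam and batch enter the folds. There, 26 of the 44 log2 fold changes were no more than 1.5 times smaller (18 of 29 lower and 8 of 15 higher genes). With the covariate 15 were (10 and 5). Ect2 stood at -1.89 without the 3 embryos and -1.59 with the covariate, Lockd at -1.49 and -1.18, and Notch3 at -1.73 and -1.46. Camk2d stood at -1.14 and -0.80, Cpe at -0.44 and -0.30, and Podxl2 at 0.30 and 0.18. Rbms3, highest in interneurons, stood at -0.66 and -0.39. Of the other higher genes, Ormdl2 stood at 0.70 and 0.57, Prodh at 0.73 and 0.37, Cirbp at 0.41 and 0.26, Rab24 at 0.60 and 0.33, Zfhx2os at 0.69 and 0.63, and C230088H06Rik at 0.61 and 0.65. A gene on the opposite strand overlaps 30 of the 44.

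Of 15 callosal and upper layer genes tested, 0 were called by edgeR (1.69% of all genes were lower and 1.57% higher), with a median log2 fold change of -0.018. Cux2 stood at 279 ± 49.0 and 320 ± 76.3 CPM (0.15, edgeR adjusted p = 0.679), with -0.49 in batch 1 alone (edgeR adjusted p = 0.00965) and 0.50 in batch 2 alone. Cntn2 stood at 441 ± 54.1 and 532 ± 56.0 CPM (0.22, edgeR adjusted p = 0.0933).

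Of 11 subcortical and deep layer genes, 0 were called (1.69% of all genes were lower and 1.57% higher) and the median was -0.24. Tle4 (chr19:14448150-14598051, minus strand) stood at 186, 175, 168, 164 and 170 CPM in saline and 144, 146, 143, 149, 136 and 144 CPM in EtOH embryos, without overlap. Its log2 fold change of -0.31 (SE 0.062, edgeR adjusted p = 0.0205) did not pass the fold limit. Bcl11b stood at 1196 ± 197 and 1091 ± 91.2 CPM (-0.18, edgeR adjusted p = 0.251), and Foxp2 at 311 ± 44.3 and 245 ± 36.6 CPM (-0.39, edgeR adjusted p = 0.0902).

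Of 13 genes of glutamatergic differentiation, 1 was lower and 0 higher (1.69% and 1.57% of all genes were), with a median of -0.067. That gene was Neurod2 (chr11:98325415-98329648, minus strand), at 298, 349, 392, 329 and 198 CPM in saline and 187, 201, 224, 193, 200 and 197 CPM in EtOH embryos. S2-4 lay within the EtOH values and the other 4 saline embryos above them, at 313 ± 72.8 against 200 ± 12.7 CPM (log2 fold change -0.69, SE 0.16, edgeR adjusted p = 0.0433). Without any 1 embryo other than S2-4, the adjusted p rose above 0.05 (up to 0.114) and the call was lost. It was also lost with batch as a term (log2 fold change -0.69, edgeR adjusted p = 0.0629) and after thinning (-0.73, 0.0877). In these fits the fold stayed close to its size. It was smaller without the 3 saline embryos with the most interneuron marker RNA (-0.38, edgeR adjusted p = 0.681) and with that RNA as a covariate (-0.11, edgeR adjusted p = 1.00). Slc17a6 stood at 106 ± 6.07 and 88.7 ± 7.88 CPM (-0.30, edgeR adjusted p = 0.0451), short of the fold limit. Of the 13 genes, 9 had a log2 fold change below 0. Neurod6, the relative of Neurod2, went the other way and was not called (0.26, edgeR adjusted p = 0.0938). Its median over embryos was 146 CPM in saline and 195 CPM in EtOH. Of 23 migration and cytoskeleton genes, 0 were called, with a median of -0.058.

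Nuclei with a UMI of an identity gene were compared at 2000 UMIs each, for 22 genes. A Tle4 UMI was found in 28.0% ± 1.3 of saline nuclei (n = 5, 26.2% to 29.4%) and 21.4% ± 0.878 of EtOH nuclei (n = 6, 19.9% to 22.5%). The groups did not overlap, and the exact permutation p = 0.00216 is the smallest that this design can give (adjusted p = 0.0476). The expected share for Tle4 was 14.5% in Cluster 5 and 49.2% in Cluster 4, and Cluster 1 was 20th of the 25 clusters by Tle4 level, with an interneuron cluster, Cluster 13, highest. Gad2, which these nuclei should lack, was found in 8.70% ± 3.89 and 2.40% ± 1.01 (exact permutation p = 0.00433, adjusted p = 0.0476), while its expected share in Cluster 5, which uses it, was 83.3%. Neurod2 was found in 45.6% ± 8.12 and 31.3% ± 2.70 (exact permutation adjusted p = 0.0635), and its expected share in Cluster 5 was 3.58%. Over splits within batches 0 of the 22 passed, where Tle4 and Gad2 were both at the smallest p that these splits allow (0.00476) and this came to an adjusted p of 0.0524, so that the 2 genes alone could not pass. The same limit held with any 1 embryo left out, where 0 passed except without S2-4 (5).

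Of 45 axon guidance genes tested, 3 were lower (1.69% of all genes were) and 0 higher, with a median log2 fold change of -0.16. Slit2, a secreted repellent, stood at 251, 267, 266, 271 and 176 CPM in saline and 131, 137, 156, 139, 160 and 163 CPM in EtOH embryos, without overlap and with S2-4 lowest among the saline embryos (-0.78, SE 0.12, edgeR adjusted p = 0.0163). Ntn1, the netrin attractant, stood at 10.7 ± 2.11 and 4.17 ± 1.55 CPM (-1.32, edgeR adjusted p = 0.0163). Cluster 1 held 7.77% and 1.68% of these 2 genes' levels in their highest clusters, both radial glia. Epha7, an ephrin receptor, stood at 202 ± 25.8 and 167 ± 9.47 CPM (-0.32, edgeR adjusted p = 0.0412), and was called in 1 of 11 fits with 1 embryo left out. Its log2 fold change was -0.13 in batch 2 alone, -0.11 with interneuron marker RNA as a covariate and -0.17 without the 3 saline embryos with the most of it. That of Slit2 was -0.43 with the covariate and -0.58 without the 3 embryos, and that of Ntn1 was -1.02 and -1.29. Dcc, the netrin receptor, stood at 11695 ± 2755 and 9442 ± 1172 CPM (-0.35, edgeR adjusted p = 0.145).

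Of 39 synaptic adhesion genes, 2 were lower (1.69% of all genes were) and 1 higher (1.57%), with a median of -0.18. Tenm1, a teneurin, stood at 292 ± 80.2 and 178 ± 19.1 CPM (-0.76, edgeR adjusted p = 0.0396), and Dlg2, a postsynaptic scaffold, at 694 ± 110 and 546 ± 56.6 CPM (-0.40, edgeR adjusted p = 0.0484). Lrrtm1, a postsynaptic organizer, stood at 44.4 ± 16.4 and 75.3 ± 7.99 CPM (0.71, edgeR adjusted p = 0.0462). Cluster 1 held 21.1% of the highest level for Tenm1, 11.6% for Dlg2 and 96.5% for Lrrtm1. With interneuron marker RNA as a covariate the log2 fold changes were -0.42 for Tenm1, -0.058 for Dlg2 and 0.23 for Lrrtm1, and without the 3 saline embryos with the most of that RNA -0.75, -0.18 and 0.32. Each of the 3 calls held in 1 of 11 fits with 1 embryo left out.

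Among receptors and channels the medians were below 0. Of 21 glutamate receptor genes 1 was lower and 1 higher (1.69% and 1.57% of all genes were), with a median of -0.34. These were Grm7, a presynaptic metabotropic receptor, at 54.5 ± 19.2 and 23.7 ± 5.80 CPM (-1.23, edgeR adjusted p = 0.0460), and Grin1, the obligate NMDA receptor subunit, at 17.5 ± 2.90 and 27.9 ± 4.72 CPM (0.60, edgeR adjusted p = 0.0320). Cluster 1 was last of the 25 clusters for Grm7, with 1.59% of the level in Cluster 25. The log2 fold change of Grm7 was -0.15 with interneuron marker RNA as a covariate and -0.53 without the 3 saline embryos with the most of it, and that of Grin1 was 0.82 and 0.65. Grik2, a kainate receptor, stood at 1818 ± 580 and 1067 ± 188 CPM (-0.81, edgeR adjusted p = 0.0641). Of 12 GABA receptor and chloride transport genes 1 was lower, Gabrb2, at 93.5 ± 14.5 and 73.3 ± 6.78 CPM (-0.41, edgeR adjusted p = 0.0425), and the median was -0.29. With the interneuron covariate its log2 fold change was 0.00036. Of 30 voltage-gated channel genes 1 was lower, the accessory calcium channel subunit Cacna2d2 (-1.05, edgeR adjusted p = 0.0397, and -0.35 with the interneuron covariate), with a median of -0.094. Its relative Cacna2d1 stood at 2522 ± 284 and 2189 ± 107 CPM (-0.25, edgeR adjusted p = 0.0583).

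In signalling, 26 Wnt genes held 1 lower and 1 higher call (1.69% and 1.57% of all genes) with a median of -0.087. Tcf7l1, a repressor among the Wnt effectors, stood at 20.2 ± 8.08 and 7.36 ± 2.95 CPM (-1.41, edgeR adjusted p = 0.0270), and the ligand gene Wnt7b at 60.8 ± 16.4 and 86.2 ± 3.33 CPM (0.46, edgeR adjusted p = 0.0403). Cluster 1 held 2.06% of the highest level for Tcf7l1 and 73.8% for Wnt7b. The log2 fold change of Wnt7b was 0.0021 with interneuron marker RNA as a covariate and 0.15 without the 3 saline embryos with the most of it, and its call held in 1 of 11 fits with 1 embryo left out. That of Tcf7l1 was -1.29 and -1.61. Of 12 Notch genes 2 were lower (1.69% of all genes were), the nuclear effector Rbpj at 165 ± 14.2 and 130 ± 13.6 CPM (-0.39, edgeR adjusted p = 0.0256) and the receptor Notch3 (-1.36, edgeR adjusted p = 0.0349), with a median of -0.21. The log2 fold change of Rbpj was -0.15 with the covariate and -0.25 without the 3 embryos, and its call held in 4 of 11 fits with 1 embryo left out.

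Ribosomal protein genes had the highest median of the 22 lists. Of 69 tested, 8 were higher (1.57% of all genes were) and 0 lower, and 8 of the 69 had a log2 fold change below 0, with a median of 0.29. Those with the smallest adjusted p were Rps19, Rpl38 and Rpl37a. Rps19 stood at 16.5 ± 4.02 and 28.8 ± 5.86 CPM (0.75, edgeR adjusted p = 0.0256). Rpl37a stood at 18, 14.2, 14.2, 17.6 and 24 CPM in saline and 26.8, 27.5, 29.8, 25.1, 31.8 and 25.4 CPM in EtOH embryos, with S2-4 the highest saline embryo (0.59, edgeR adjusted p = 0.0306). These 3 calls did not hold after thinning to 2000 UMIs, with log2 fold changes of 0.23 for Rps19, 0.59 for Rpl38 and 0.40 for Rpl37a (edgeR adjusted p = 0.665, 0.385 and 0.400). With 1 embryo left out they held in 4, 3 and 2 of 11 fits, and with the interneuron covariate the log2 fold changes were 0.31, 0.57 and 0.35. Of 67 oxidative phosphorylation genes 0 were called, with a median of 0.077. Among them Atp5o stood at 212, 184, 187, 291 and 531 CPM in saline and between 440 and 512 CPM in EtOH embryos, with S2-4 above all others (0.70, edgeR adjusted p = 0.131).

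Imprinted genes had the lowest median of the 22 lists. Of 13 tested, 2 were lower (1.69% of all genes were), the noncoding RNA Kcnq1ot1 at 934 ± 125 and 715 ± 57.3 CPM (-0.44, edgeR adjusted p = 0.0298) and Nnat, a small membrane protein gene, at 643 ± 109 and 511 ± 20.9 CPM (-0.38, edgeR adjusted p = 0.0396), and the median was -0.38. With the interneuron covariate the log2 fold changes were -0.26 for Kcnq1ot1 and -0.057 for Nnat. Of 19 splicing regulators 1 was lower, Qk, at 249 ± 25.2 and 188 ± 18.6 CPM (-0.46, edgeR adjusted p = 0.0163), with a median of -0.11. Of 5 X-linked genes that escape inactivation 1 was lower, the helicase gene Ddx3x (-0.41, edgeR adjusted p = 0.0205), with a median of -0.35. With the interneuron covariate the log2 fold changes were -0.20 for Qk and -0.26 for Ddx3x.

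Genes of cell stress gave 0 calls by edgeR. With 1.69% of all genes lower and 1.57% higher, lists this short are too small to tell 0 from the share of all genes. The medians were -0.027 for 13 alcohol metabolism and oxidative stress genes, -0.036 for 12 apoptosis and p53 genes, -0.040 for 13 heat shock and chaperone genes, and -0.020 for 4 immediate early genes. The 14 cholesterol synthesis genes (0.051) and 27 chromatin regulators (-0.092) also gave 0. Among their most abundant members, Srebf2, the regulator of sterol synthesis, stood at 133 ± 16.5 CPM, and Kmt2c, a histone methyltransferase, at 518 ± 34.9 CPM (n = 11).

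Interneuron genes were among the calls. Erbb4, the neuregulin receptor of migrating interneurons, stood at 525, 365, 538, 292 and 159 CPM in saline and 81.1, 155, 169, 106, 60.1 and 93.0 CPM in EtOH embryos (-1.82, SE 0.38, edgeR adjusted p = 0.0397), and Nxph1 fell by 1.68 (edgeR adjusted p = 0.0490). With the interneuron covariate, whose sum holds both genes, their log2 fold changes were -0.16 and -0.16, and without the 3 saline embryos with the most of that RNA -1.002 and -0.91. Cluster 1 held 1.00% and 0.901% of their levels in Cluster 5. Gad2 stood at 46.9 ± 21.7 and 23.8 ± 9.11 CPM (-1.01, edgeR adjusted p = 0.147).

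Whether EtOH moved genes differently in Cluster 1 was tested against Clusters 4 and 9 in the same embryos. Against Cluster 4, 1 of 11733 genes (0.00852%) passed, with 837 at an unadjusted p under 0.05. It was Nhs, the gene of Nance-Horan syndrome (chrX:161833296-162159730, minus strand), at 51.5, 35.3, 47.8, 63.5 and 24.2 CPM in the saline and 11.4, 14.4, 20.3, 14.0, 8.68 and 11.1 CPM in the EtOH embryos. The groups did not overlap in Cluster 1, where the log2 fold change was -1.74 (SE 0.27, edgeR adjusted p = 0.0201) against -0.41 in Cluster 4 (0.223). With the interneuron covariate the log2 fold change in Cluster 1 was -0.94. The difference was -1.29 (SE 0.18, edgeR adjusted p = 0.00197), but limma's voom with the embryo as a random block gave it an adjusted p of 0.584. Cluster 1 held 3.98% of the level of Nhs in radial glia Cluster 2.

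Against Cluster 9, 1 of 10673 genes (0.00937%) passed, with 682 at an unadjusted p under 0.05. It was Trps1, with -0.78 in Cluster 1 and -0.10 in Cluster 9 (edgeR adjusted p = 0.525), a difference of -0.61 (SE 0.095, edgeR adjusted p = 0.00163). In Cluster 4 its log2 fold change was -0.66 (edgeR adjusted p = 0.0896), and the difference from Cluster 1, -0.098 (SE 0.18), did not pass (edgeR adjusted p = 0.965). Neurod2 fell in all 3 clusters, by 0.62 in Cluster 4 and 0.64 in Cluster 9 (edgeR adjusted p = 0.0495 and 0.0445). The difference from Cluster 1 had adjusted p-values of 0.986 and 1.00. Within their own cluster, 44 genes were lower and 38 higher in Cluster 4 (0.386% and 0.333% of 11402), and 73 and 43 in Cluster 9 (0.799% and 0.471% of 9138).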

How the data were processed

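Counts deposited by the authors were used: raw UMI counts per nucleus for 23513 genes, in 1 table per embryo and cluster (275 tables). The authors sequenced 10x 3′ libraries of nuclei, aligned to mm10 with Cell Ranger at default settings, set limits per nucleus on UMIs, genes and the percentages of mitochondrial, ribosomal and hemoglobin RNA, dropped sex-specific genes, and clustered after integration over batch and dam. The strand of counting and a doublet caller are not given in the sources used here. Doublets were not called, and 62 nuclei (1.42%) had over 20000 UMIs. A twelfth embryo, S2-3, and the gene Neurod1 were not analysed here. The paper states that 1 saline sample was taken out for its distribution over the clusters, and does not name it.

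Counts were summed over the Cluster 1 nuclei of each of the 11 embryos and fitted with edgeR 4.0.16 in R 4.3.3 (glmQLFit, robust, TMM, filterByExpr), with treatment as the only term. The test of clusters against each other had the embryo as a block. Alternatives used DESeq2 1.42.0 and limma 3.58.1. The edgeR fits with and without batch, DESeq2, voom with the dam block and the edgeR test between clusters were tested on simulated data. The simulated embryos had no dam effect, and the other alternatives were not simulated. Shares were compared by two-sided exact permutation tests. Python 3.11.15, NumPy 2.4.6, pandas 2.3.3 and matplotlib 3.10.9 were also used. Positions come from GENCODE M21 on GRCm38, with 114 of 116 genes matched. The SD between embryos includes counting error.

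The text names up to 10 called genes per direction with the smallest adjusted p, up to 3 per direction of each of 22 gene lists, some of the 2 most abundant members of a list, markers of cell types, the 8 genes with the highest ratio in each of 2 comparisons of clusters, and genes passing the test between clusters. A few genes that the rule selects are left out here. Cluster members, lists and tests were chosen with earlier results of these data known.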

Additional observations from a re-analysis of the deposited data

Results flagged for a closer look

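Of 172 groups of embryos looked at, 20 held an embryo farther from the others than Dixon's 95% limit allows, and chance would give about 1 in 20. For the make-up of the cluster these were the share of all nuclei in S2-1 (4.85%) and E1-1 (13.9%), the share of projection neuron nuclei in E1-1 (36.7%) and the median UMIs in E1-1 (3987.5). S2-4 stood apart from the other saline embryos for Ormdl2 (21.4 CPM), Podxl2 (204 CPM), Rab24 (25.8 CPM), Slit2 (176 CPM) and Kcnq1ot1 (718 CPM), each time on the side of the EtOH embryos. The other saline embryos that stood apart were S1-1 for Dlg2 (886 CPM) and S2-2 for Notch3 (13.5 CPM). Among EtOH embryos these were E2-3 for Trps1 (115 CPM), E1-2 for Tenm1 (216 CPM), E2-1 for Grik2 (711 CPM) and E1-1 for Rpl38 (11.4 CPM).

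In the percent of nuclei with a UMI, S2-4 stood apart for Neurod6 (31.6%) and Crym (0.312%, with 0 in the other saline embryos), S2-2 for Lmo4 (16.3%), E1-2 for Sox5 (95.8%) and E2-3 for Crym (1.93%).

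The effect of EtOH differed between clusters for Nhs, by -1.29 on the log2 scale between Clusters 1 and 4, and for Trps1, by -0.61 between Clusters 1 and 9.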

How the results depend on the processing

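The counts of lower and higher genes (182 and 169) became 307 and 364 with DESeq2, 594 and 491 with no filter on low counts, 103 and 116 with at least 10 CPM in 5 embryos, 478 and 625 in batch 1 alone, 0 and 0 in batch 2 alone, 95 and 43 with counts summed per dam, 86 and 218 with voom and the dam as a random block, and 65 and 57 with nuclei thinned to 2000 UMIs. Of choices made after seeing the data, genes whose Cluster 1 level reached at least 50% of their highest gave 19 and 49, the interneuron marker covariate 0 and 0, and leaving out 3 saline embryos 1 and 0. Leaving out each embryo gave 11 to 623 lower and 1 to 1034 higher genes. DESeq2's size factors, the batch term (140 and 118) and nuclei of over 20000 UMIs left out kept both counts within 1.5 times.

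The 2 identity genes passing became 8 without thinning, 5 at 4000 UMIs, 0 within batches, and 0 to 5 with each embryo left out, where 2 genes alone could not pass for want of splits. The 1 gene differing from Cluster 4 became 0 with voom and 1 to 24 with each embryo left out, and from Cluster 9 1 to 40. The difference in the Cluster 1 share of nuclei, 1.83 percentage points, lay between 1.00 and 2.17 with each embryo left out. That in the Cluster 1 share of projection neuron nuclei, -0.63, lay between -2.57 and 0.193, and was above 0 without E1-2 (0.193) and E2-3 (0.0692). The difference in Cluster 1 median UMIs per nucleus, -1997, lay between -2411 and -1636. Directions turned for Cux2 in batch 1 alone (-0.49) and with counts summed per dam (-0.0029), and with the interneuron covariate for Gabrb2 (0.00036) and Gad2 (0.51). Except where the alternative itself drops samples or genes, the cause was not tested. No paired analysis was possible because embryo numbers mark no pair between treatments.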
